A study of Mus musculus with 12 samples.

Results

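The 9 genes described here encode the classical MHC class I molecules of the mouse and the machinery that loads them with peptide: H2-K1, H2-D1, B2m, Tap1, Tap2, Tapbp, Tapbpl, Erap1 and Nlrc5. They are defined by gene symbol, the list having been drawn up with earlier results of these data known, and all 9 were found among the 55416 gene IDs of the count tables. Their RNA was measured by bulk RNA-seq in 4 groups of 3 libraries, 12 libraries in all. The groups were YUMM1.1 cells given recombinant mouse interferon-gamma (IFNG) at 10 ng/ml for 48 h, untreated YUMM1.1 cells, B16 cells given the same dose for 48 h, and untreated B16 cells. YUMM1.1 is a mouse melanoma line derived from a tumour of an engineered mouse whose alleles include mutant Braf, and B16 is a melanoma line from a C57BL/6 mouse. Each line descends from a single tumour. Whether the 3 libraries of a group were grown as separate cultures is not stated in the labels. The p-values therefore cover the spread among these libraries alone, and that spread may be technical.

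Class I molecules show peptides from inside the cell to CD8 T cells. Proteins are cut by the proteasome, the TAP1-TAP2 transporter moves the peptides into the endoplasmic reticulum, ERAP1 trims them, and tapasin (Tapbp) and the related TAPBPR (Tapbpl) help a heavy chain bound to beta-2-microglobulin (B2m) to take up a peptide. IRF1 is among the transcription factors that act downstream of IFNG, and NLRC5 is a transactivator that acts on class I promoters together with RFX, CREB/ATF and NF-Y factors bound at the X and Y boxes.

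Of the members, 5 lie in the MHC region of chromosome 17 by GENCODE M21 on GRCm38: Tapbp at chr17:33915899-33929292, H2-K1 at chr17:33996017-34000347, Tap1 at chr17:34187553-34197225, Tap2 at chr17:34203527-34216321 and H2-D1 at chr17:35262730-35267499. B2m is at chr2:122147686-122153083, Tapbpl at chr6:125223933-125231860, Nlrc5 at chr8:94434356-94527272 and Erap1 at chr13:74639568-74693201. All are protein-coding genes, H2-K1 and Tapbpl on the minus strand and the others on the plus strand, and the counts of each cover its exons as the authors counted them. Of their exonic stretches of 50 bases, 9.63% in H2-K1 and 12.8% in H2-D1 recur in other class I genes or pseudogenes (H2-Q10 and H2-Q1 most often) or elsewhere in the transcript set, and 23.2% in Tapbp, 11.6% in Tap2 and 10.7% in Erap1 recur mainly in genes annotated on the opposite strand at the same place. In Tap1 3.33% recur, most of them in Psmb9, which overlaps its exons on the opposite strand and itself rose with IFNG. In Tapbpl 3.69% recur, spread over 256 other genes. In Nlrc5 0.338% recur, all in 9330175E14Rik, which overlaps its exons on the opposite strand. For all these genes reads could belong to another gene, since no source used here gives the strand of the libraries or the treatment of shared reads. No such stretch of B2m recurred.

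The promoter windows of the heavy chains, of B2m and of Erap1 are shown because they held matches to the motifs described below. RefSeq windows on GRCm38.p6, running from 250 bases before to 50 bases after the start site, matched 6 of the 9 members: H2-K1, H2-D1, B2m, Tap1, Tapbp and Erap1. Each is printed 5′ to 3′ on the strand of the gene, with the motif matches in capitals. The H2-K1 window is chr17:34000298-34000597 (minus strand), the H2-D1 window chr17:35262844-35263143, the B2m window chr2:122147437-122147736 and the Erap1 window chr13:74639603-74639902 (plus strand).
H2-K1: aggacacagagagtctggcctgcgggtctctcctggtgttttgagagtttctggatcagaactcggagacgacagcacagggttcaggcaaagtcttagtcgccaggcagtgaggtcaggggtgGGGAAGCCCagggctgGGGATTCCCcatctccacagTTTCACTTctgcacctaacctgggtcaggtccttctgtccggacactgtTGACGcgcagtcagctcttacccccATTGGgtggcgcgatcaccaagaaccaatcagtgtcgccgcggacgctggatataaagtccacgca
H2-D1: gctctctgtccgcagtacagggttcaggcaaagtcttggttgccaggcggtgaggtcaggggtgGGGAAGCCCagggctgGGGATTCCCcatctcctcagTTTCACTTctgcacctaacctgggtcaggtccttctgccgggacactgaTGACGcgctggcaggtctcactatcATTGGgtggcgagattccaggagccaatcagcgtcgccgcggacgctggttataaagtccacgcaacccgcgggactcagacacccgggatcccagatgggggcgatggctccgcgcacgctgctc
B2m: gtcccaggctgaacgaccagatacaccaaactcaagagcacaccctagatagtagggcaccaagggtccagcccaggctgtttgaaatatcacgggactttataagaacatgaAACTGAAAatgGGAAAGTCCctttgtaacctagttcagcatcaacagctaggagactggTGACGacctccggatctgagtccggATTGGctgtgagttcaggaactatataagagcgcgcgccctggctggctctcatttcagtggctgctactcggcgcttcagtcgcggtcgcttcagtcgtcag
Erap1: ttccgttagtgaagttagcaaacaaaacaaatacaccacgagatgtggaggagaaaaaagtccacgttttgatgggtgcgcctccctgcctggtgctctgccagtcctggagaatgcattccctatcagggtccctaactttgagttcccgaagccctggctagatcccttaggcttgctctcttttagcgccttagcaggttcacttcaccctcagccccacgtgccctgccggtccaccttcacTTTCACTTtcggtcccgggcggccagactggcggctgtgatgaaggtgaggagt

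The motifs searched, on both strands, were AANNGAAA (the core of an interferon-stimulated response element), TTCNNNGAA (a GAS, or gamma-activated sequence), GGNNTTNCC (a kB-like element) and TGACG followed after 20 bases by ATTGG (an X2 box and a Y box, here called the X2-Y module). The spacing of the module was chosen after the H2-K1, H2-D1 and B2m windows had been seen, so its presence in them is a description. In H2-K1, H2-D1 and B2m the capitals mark, in order along the strand, kB-like and interferon cores and then the module; in Erap1 they mark 1 interferon core over the start site. H2-K1 and H2-D1 hold the same order of matches, 2 kB-like stretches, the interferon core and the module, and in B2m the interferon core comes before a single kB-like stretch. No 2 matches overlap in these windows. Of 32851 windows in the table, 23.9% held the interferon core, 8.30% the GAS, 16% the kB-like motif and 0.0944% the module, which is 31 windows. The windows of Tap1 and Tapbp held none of the 4, and none of the 6 windows held the GAS. The Tapbp start site used by RefSeq lies 3579 bases from the M21 gene start, that of H2-D1 364 bases and that of Erap1 285 bases, and the table holds 2 windows for H2-K1, of which the one at the M21 gene start was used. The map of the matches shows the module between -41 and -12 in H2-K1, -101 and -72 in H2-D1 and -78 and -49 in B2m. These positions depend on the start site used. Every match in H2-K1 lay nearer to it than its counterpart in H2-D1, and positions were not aligned between genes.

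**Figure D1:**
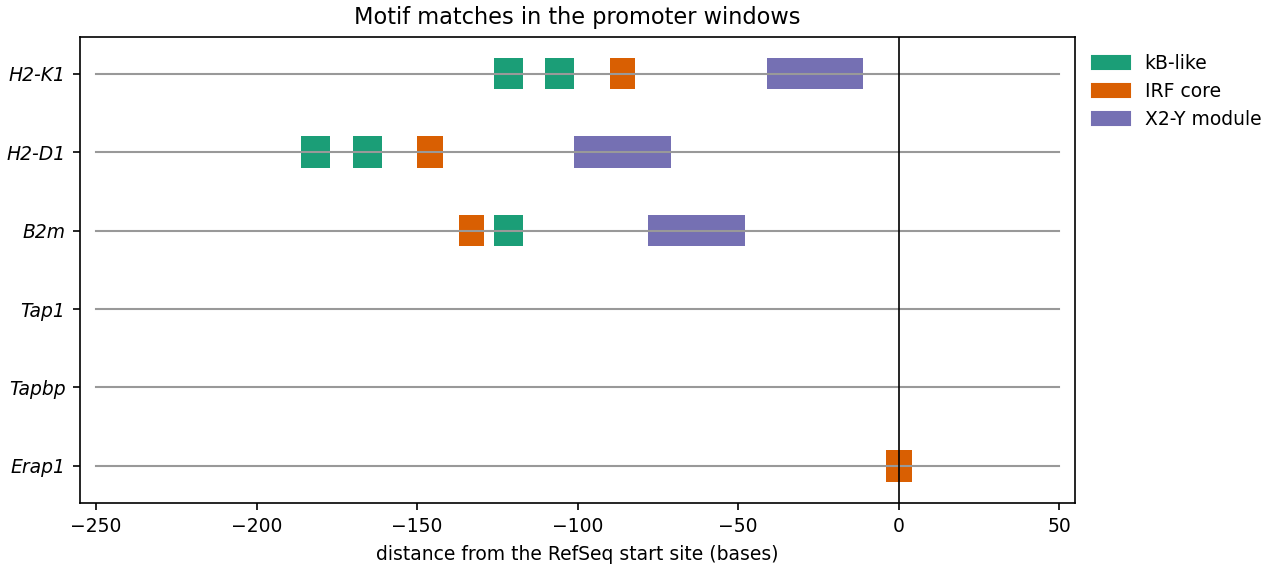
Positions of motif matches in the 6 promoter windows, in bases from the RefSeq start site (0 line); each grey line is 1 window and each block 1 match. The H2-K1, H2-D1 and B2m windows hold kB-like, interferon core and X2-Y module matches, Erap1 a single interferon core from -4 to 4, and Tap1 and Tapbp no match.

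The YUMM1.1 libraries held 19145253 to 24747859 counts and the B16 libraries 2573805 to 7888257, so low values are less precise in B16. Melanocyte lineage markers summed to 723 to 820 CPM (counts scaled to the library total) in YUMM1.1, mostly Sox10, with Tyr, Tyrp1, Dct and Mlana at or near 0, and to 33522 to 35491 CPM in treated B16, against 28384 to 28566 CPM in untreated B16. In B16 4 of the 8 melanocyte markers were called higher with IFNG and 2 lower, where 22.1% and 22% of tested genes were. The count lower was near the share of all genes. In YUMM1.1 none of the 4 tested was called, or had an unadjusted p below 0.05, by edgeR, DESeq2 or limma-voom. Of all tested genes in YUMM1.1, 3.73% were called higher and 0.825% lower by edgeR. Leukocyte markers summed to at most 6.69 CPM in YUMM1.1 and 7.52 CPM in B16, with Itgam and Itgax at 0 in all libraries. Cd68, the 1 leukocyte marker tested in B16, was called higher there with IFNG (log2 fold change 1.44, edgeR adjusted p = 0.0257). Of 3 fibroblast markers tested in B16, 1 was called lower, Pdgfra (-1.31, 0.0259). Fibroblast markers reached 12.4 CPM in YUMM1.1 and 54.7 CPM in B16, the highest being B16 IFNG 2, and endothelial and keratinocyte markers stayed below 1 CPM in sum. Their part in the results was not tested. By the chi-square of their counts per degree of freedom, B16 IFNG 3 stood apart from IFNG 1 and IFNG 2 (17.2 and 16.9, against 1.27 between those 2 libraries). The B16 control pairs had 2.22, 3.26 and 1.55, and the YUMM1.1 pairs ranged between 13.5 and 41.5. This statistic grows with depth, so the values of the 2 lines cannot be set against each other. B16 IFNG 1 and IFNG 2 are therefore also given as 1 summed library where that changes a call of a member.

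All 9 members were higher in treated than in untreated cells of both lines, and no treated library overlapped a control library for any of them. Together they took 1.1%, 1.09% and 1.36% of the counts in the 3 treated YUMM1.1 libraries, against 0.0612%, 0.0553% and 0.0640% in the controls. In B16 they took 1.08%, 1.06% and 1.06% of the counts after IFNG, against 0.0681%, 0.0654% and 0.0703% in the controls. In bulk samples, fewer cells with a transcript and less of it per cell cannot be told apart. Called at an adjusted p below 0.05 (edgeR quasi-likelihood test, Benjamini-Hochberg over all tested genes), 9 of 9 members were higher in YUMM1.1, where 3.73% of tested genes were, and 9 of 9 in B16, where 22.1% were. A complete separation of treated above control libraries was seen in 7.72% of tested genes in YUMM1.1 and 18.2% in B16. The members' median log2 fold change was 6.26 in YUMM1.1 and 4.99 in B16, against -0.0056 and -0.0075 over all tested genes. Only 67 of 12970 tested genes in YUMM1.1 and 118 of 11240 in B16 lay above that median.

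**Figure D2:**
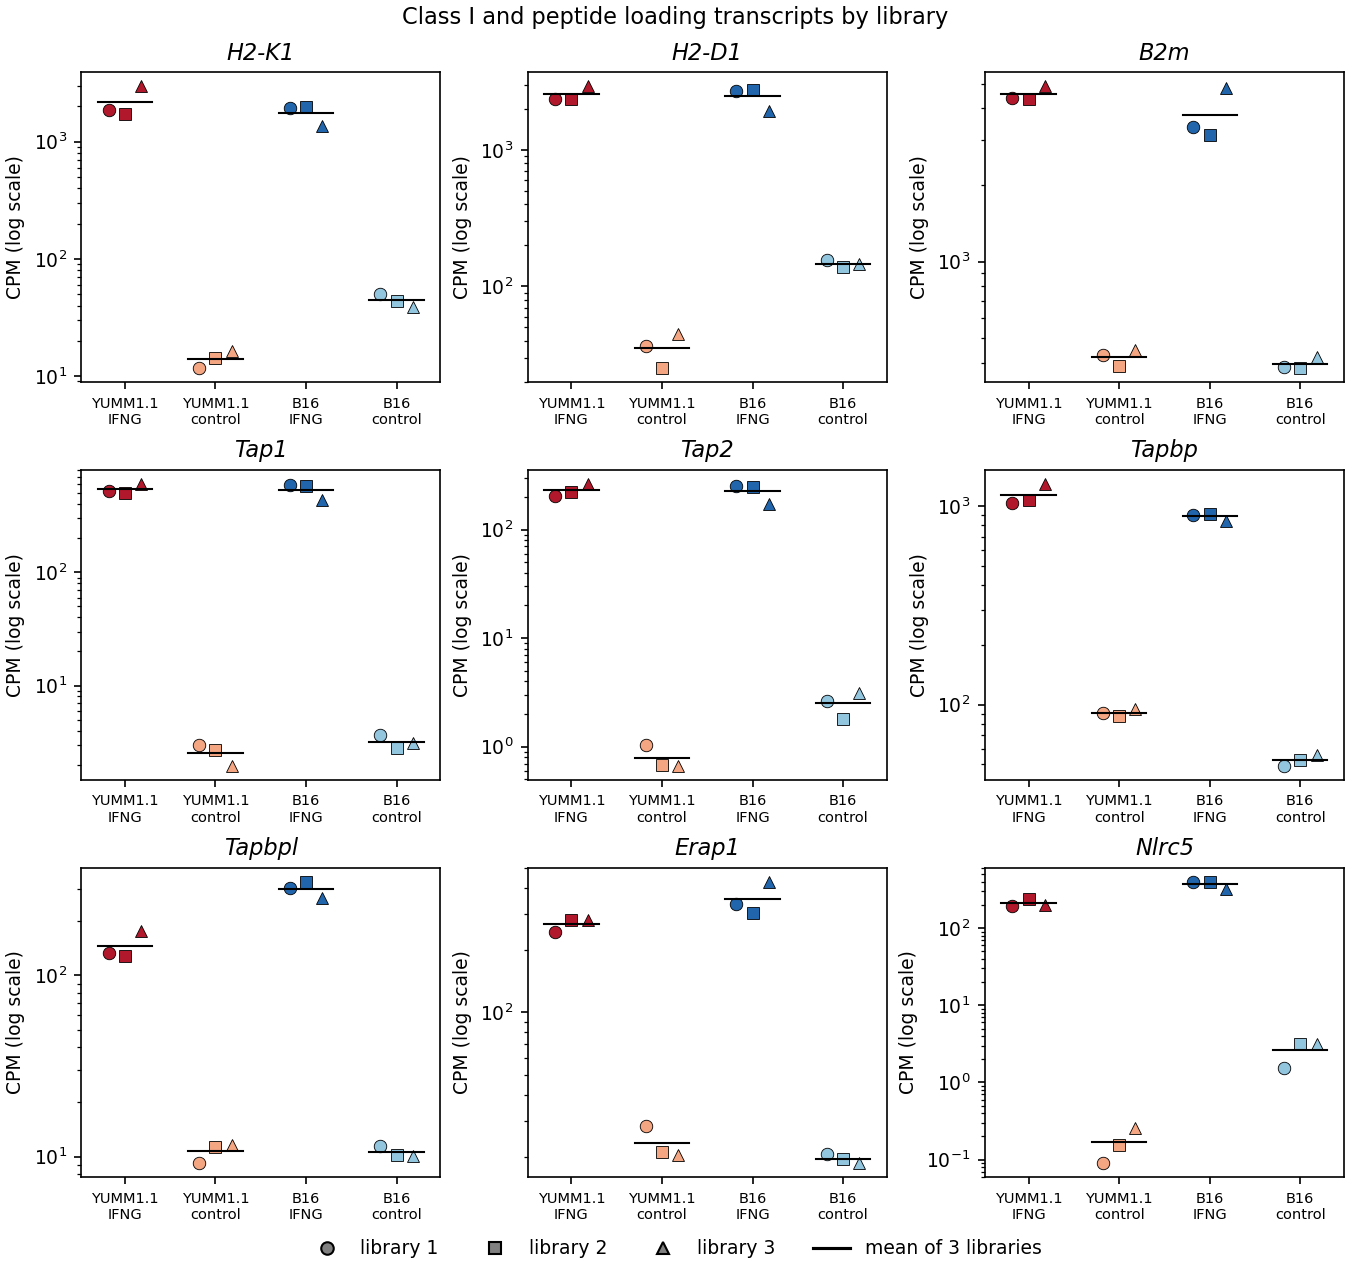
CPM of the 9 members in each library (log axes), by group; symbols mark the library number and lines the mean of 3 libraries. Every treated library lies above every control of its line, from B2m (391 to 448 CPM in untreated YUMM1.1) to Nlrc5 (0.0894 to 0.257 CPM).

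Among the heavy chains, H2-K1 (the H-2K chain) reached 1866, 1730 and 2968 CPM in treated YUMM1.1 cells, against 11.7, 14.2 and 16.4 CPM in untreated ones. In B16 it reached 1942, 1960 and 1369 CPM after IFNG, against 49.9, 43.4 and 39.2 CPM without it. The treated levels of the lines overlapped, and all 3 untreated YUMM1.1 libraries lay below all 3 of B16. The log2 fold change was 7.36 ± 0.28 (SE, adjusted p = 7.84e-08) in YUMM1.1 and 5.49 ± 0.18 (adjusted p = 2.37e-08) in B16. H2-D1 (the H-2D chain) had 2387, 2391 and 2941 CPM in treated YUMM1.1 cells, against 36.6, 25.2 and 44.9 CPM in controls. B16 cells had 2713, 2775 and 1942 CPM after IFNG, against 157, 138 and 146 CPM in controls. As for H2-K1, the lines overlapped after IFNG and were apart before it. Its log2 fold change was 6.26 ± 0.24 (adjusted p = 6.66e-08) in YUMM1.1 and 4.27 ± 0.16 (adjusted p = 4.81e-08) in B16.

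B2m, the light chain that classical class I heavy chains need to leave the endoplasmic reticulum, was the most abundant member in every group. It had 4391, 4367 and 4876 CPM in treated YUMM1.1 cells, against 431, 391 and 448 CPM in controls. In B16 it had 3374, 3130 and 4823 CPM after IFNG, against 386, 382 and 424 CPM in controls. B16 IFNG 3 had the highest B2m of the treated B16 libraries and the lowest H2-K1 and H2-D1. The log2 fold change of B2m was the smallest of the 9 members in either line, 3.50 ± 0.14 (adjusted p = 6.54e-08) in YUMM1.1 and 3.44 ± 0.16 (adjusted p = 2.34e-07) in B16. Its promoter window and those of H2-K1 and H2-D1, printed above, hold the same 3 kinds of match.

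The 2 subunits of the peptide transporter were both low without IFNG. Tap1 had 522, 505 and 605 CPM in treated YUMM1.1 cells, against 3.00, 2.66 and 1.95 CPM in controls. B16 cells had 593, 581 and 435 CPM after IFNG, against 3.68, 2.79 and 3.11 CPM in controls. The lines overlapped with and without IFNG, and the log2 fold change was 7.81 ± 0.19 (adjusted p = 3.26e-09) in YUMM1.1 and 7.54 ± 0.20 (adjusted p = 6.42e-09) in B16. Tap2 had 205, 220 and 263 CPM in treated YUMM1.1 cells, against 1.03, 0.679 and 0.669 CPM in controls, which is 49 control reads in all. In B16 Tap2 had 253, 247 and 173 CPM after IFNG, against 2.66, 1.79 and 3.11 CPM in controls, from 38 reads. Every untreated YUMM1.1 library was below every untreated B16 library. The log2 fold change of Tap2 was 8.23 ± 0.20 (adjusted p = 3.26e-09) in YUMM1.1 and 6.69 ± 0.24 (adjusted p = 4.26e-08) in B16.

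Tapbp encodes tapasin, which bridges the transporter and the empty class I molecule, and Tapbpl its homolog TAPBPR, a peptide editor that works apart from the transporter. Tapbp had 1036, 1071 and 1294 CPM in treated YUMM1.1 cells, against 90.6, 87.4 and 95.4 CPM in controls, and its log2 fold change was 3.71 ± 0.14 (adjusted p = 5.31e-08). In B16 Tapbp had 906, 918 and 841 CPM after IFNG, against 49.2, 52.6 and 55.9 CPM in controls, a log2 fold change of 4.28 ± 0.10 (adjusted p = 2.56e-09). YUMM1.1 was above B16 in every library, treated or not. Tapbpl had 132, 128 and 175 CPM in treated YUMM1.1 cells, against 9.17, 11.3 and 11.5 CPM in controls, a log2 fold change of 3.84 ± 0.17 (adjusted p = 1.37e-07). In B16 it had 303, 328 and 267 CPM after IFNG, against 11.4, 10.2 and 10.1 CPM in controls, a log2 fold change of 4.99 ± 0.14 (adjusted p = 6.50e-09). The untreated lines overlapped for Tapbpl, and after IFNG all YUMM1.1 libraries were below all B16 libraries.

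Erap1, the aminopeptidase that trims peptides in the endoplasmic reticulum, had 244, 278 and 280 CPM in treated YUMM1.1 cells, against 28.3, 21.2 and 20.5 CPM in controls. B16 cells had 334, 301 and 428 CPM after IFNG, against 20.7, 19.5 and 18.6 CPM in controls. The untreated lines overlapped, and the treated YUMM1.1 libraries lay below the treated B16 libraries. The log2 fold change was 3.59 ± 0.15 (adjusted p = 9.61e-08) in YUMM1.1 and 4.35 ± 0.16 (adjusted p = 4.01e-08) in B16.

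Nlrc5, the transactivator, showed the largest fold change of the 9 in YUMM1.1. It had 195, 239 and 201 CPM in treated YUMM1.1 cells, against 0.0894, 0.157 and 0.257 CPM in controls, where it was counted by 2, 3 and 5 reads. In B16 it had 400, 399 and 326 CPM after IFNG, against 1.52, 3.19 and 3.11 CPM in controls, from 12, 16 and 8 reads. YUMM1.1 lay below B16 in every library, treated or not. The log2 fold change was 10.36 ± 0.23 (adjusted p = 3.26e-09) in YUMM1.1 and 7.49 ± 0.22 (adjusted p = 9.13e-09) in B16, and the size of the first rests on 10 control reads. With so few control reads these SE may be too small. DESeq2 gave an SE of 0.48 in YUMM1.1 and 0.28 in B16, and limma-voom 0.45 and 0.32.

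**Figure D3:**
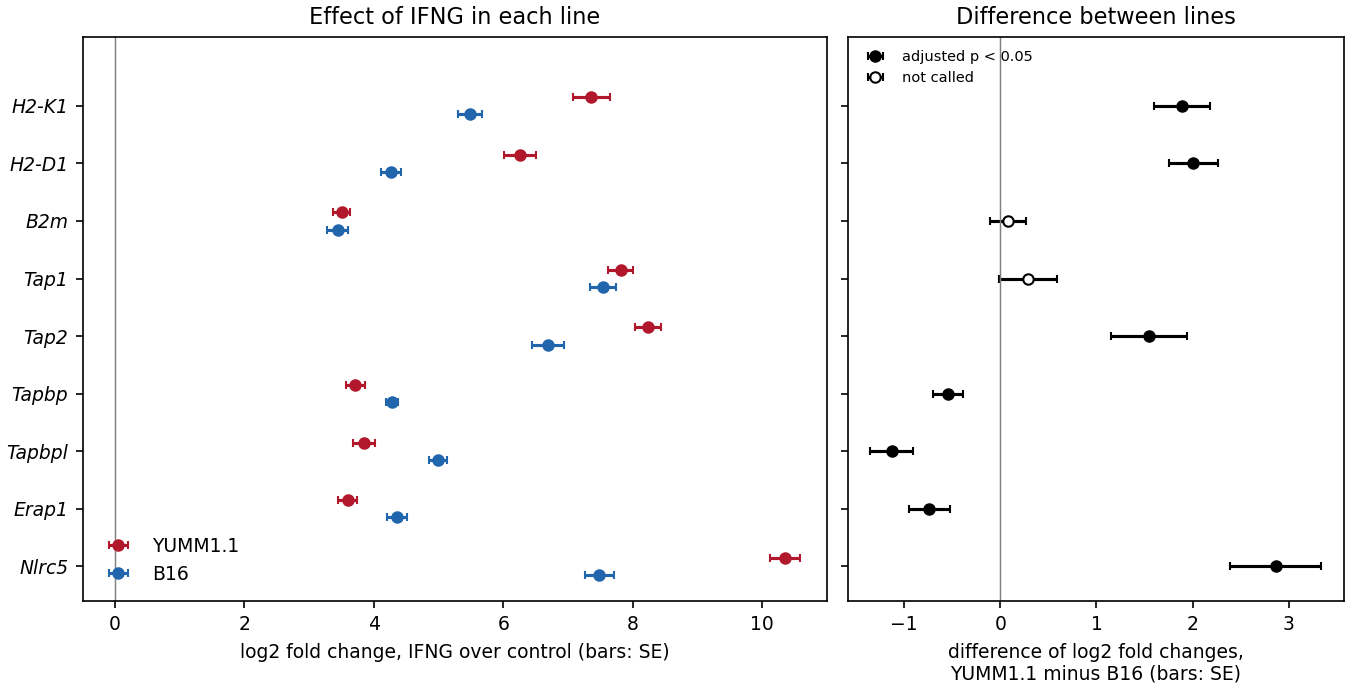
Left, log2 fold change of IFNG-treated over control cells for each member in YUMM1.1 (red) and B16 (blue); right, the difference of the 2 values, with filled points where its adjusted p is below 0.05. Bars are SE; Nlrc5, H2-D1, H2-K1 and Tap2 lie to the right of 0 in the right panel, Tapbp, Erap1 and Tapbpl to the left, and B2m and Tap1 are not called.

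The response differed between the lines for 7 of the 9 members, tested as the interaction of line and treatment over all 12 libraries. It was larger in YUMM1.1 for 4 members, where 9.95% of tested genes were called higher, and smaller in YUMM1.1 for 3 members, where 8.51% were called lower. Larger in YUMM1.1 were Nlrc5, by 2.86 ± 0.47 on the log2 scale (SE, adjusted p = 4.52e-04), H2-D1 by 2.01 ± 0.26 (adjusted p = 4.29e-05), H2-K1 by 1.89 ± 0.29 (adjusted p = 2.49e-04) and Tap2 by 1.55 ± 0.39 (adjusted p = 0.0111). These 4 are the members whose untreated YUMM1.1 libraries all lay below those of B16. The difference uses these same untreated counts, and the share of all genes so separated was not computed, so this is a description. Smaller in YUMM1.1 were Tapbpl, with a difference of -1.13 ± 0.22 (adjusted p = 0.00194), Erap1 with -0.74 ± 0.22 (adjusted p = 0.0253) and Tapbp with -0.54 ± 0.16 (adjusted p = 0.0235). The differences of B2m (0.080 ± 0.19, adjusted p = 0.837) and Tap1 (0.29 ± 0.30, adjusted p = 0.561) did not pass the threshold, which does not show equal responses.

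Leaving out B16 control 1 ended the call of Tap2 (difference 1.41, adjusted p = 0.0896). The Tapbp call was also lost without B16 control 1 (-0.52, 0.0796), B16 control 2 (-0.54, 0.0702), B16 IFNG 1 (-0.52, 0.0579), B16 IFNG 2 (-0.52, 0.0557), YUMM1.1 control 3 (-0.51, 0.0518), YUMM1.1 IFNG 1 (-0.48, 0.0596) or YUMM1.1 IFNG 2 (-0.50, 0.0601), the second value being the adjusted p. That of Erap1 was lost without B16 control 2 (-0.72, 0.0726), B16 control 3 (-0.69, 0.0680), YUMM1.1 control 1 (-0.57, 0.0592) or YUMM1.1 IFNG 1 (-0.67, 0.0600). The Tapbp call also ended with library totals alone (-0.45, 0.0536), with no filter on low counts (-0.51, 0.0705) and with B16 IFNG 1 and 2 summed (-0.54, 0.0520), and the Erap1 call with limma-voom (-0.70, 0.0549). H2-K1, H2-D1, Tapbpl and Nlrc5 stayed called whichever library was left out.

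After IFNG the lines stood close together in most members. YUMM1.1 was called higher than B16 for 2 members (36.6% of tested genes were) and lower for 2 (33.2% were), counts not far from the shares of all genes. Tapbp was higher, with a log2 ratio of YUMM1.1 over B16 of 0.47 ± 0.11 (SE, adjusted p = 8.82e-04), and so was B2m, with 0.39 ± 0.14 (adjusted p = 0.0165). Tapbpl (-0.92 ± 0.14, adjusted p = 1.27e-05) and Nlrc5 (-0.70 ± 0.14, adjusted p = 2.56e-04) were lower. H2-K1 (0.44 ± 0.19, adjusted p = 0.0524), H2-D1 (0.18 ± 0.18, 0.383), Tap1 (0.14 ± 0.14, 0.372), Tap2 (0.15 ± 0.15, 0.369) and Erap1 (-0.28 ± 0.14, 0.0808) did not pass. Calls near the threshold turned on single libraries. B2m was no longer called without B16 IFNG 1 (0.33, adjusted p = 0.0712), B16 IFNG 2 (0.28, 0.0963) or YUMM1.1 IFNG 3 (0.33, 0.0599), nor with library totals alone (0.27, 0.0916) or with B16 IFNG 1 and 2 summed (0.29, 0.0899), and it was 0.61 without B16 IFNG 3 (1.39e-04). H2-K1 was called without B16 IFNG 1 (0.53, 0.0483), B16 IFNG 2 (0.53, 0.0464), YUMM1.1 IFNG 1 (0.54, 0.0333) or YUMM1.1 IFNG 2 (0.58, 0.0194), and with no filter (0.54, 1.52e-04). Erap1 was called without B16 IFNG 2 (-0.38, 0.0336) or YUMM1.1 control 1 (-0.28, 0.0472), with library totals alone (-0.41, 0.0164) and with B16 IFNG 1 and 2 summed (-0.36, 0.0460).

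Before IFNG the lines stood further apart by the median size of the members' ratios, given below. Untreated YUMM1.1 was called higher than untreated B16 for 2 members (34.7% of tested genes were) and lower for 4 (33.4% were), counts not far from the shares of all genes. The 4 lower ones were Nlrc5, with a log2 ratio of -3.57 ± 0.45 (SE, adjusted p = 2.57e-06), H2-D1 with -1.83 ± 0.19 (2.24e-07), H2-K1 with -1.45 ± 0.22 (1.84e-05) and Tap2 with -1.40 ± 0.37 (0.00286). Tapbp was higher by 1.02 ± 0.12 (7.52e-07) and Erap1 by 0.45 ± 0.17 (0.0229). B2m (0.31 ± 0.14, 0.0528), Tapbpl (0.21 ± 0.18, 0.315) and Tap1 (-0.15 ± 0.27, 0.636) did not pass. The Erap1 call was lost without B16 control 2 (0.45, adjusted p = 0.0622), B16 control 3 (0.43, 0.0620) or YUMM1.1 control 1 (0.29, 0.124), and with library totals alone (0.24, 0.207) or limma-voom (0.43, 0.0722). B2m was called without B16 IFNG 2 (0.32, 0.0374), B16 IFNG 3 (0.32, 0.00837) or YUMM1.1 control 2 (0.36, 0.0457), and with RLE factors (0.33, 0.0411), DESeq2 (0.33, 0.0347), no filter (0.38, 0.0121) or B16 IFNG 1 and 2 summed (0.32, 0.0400). The median absolute log2 ratio of the members was 0.39 between the treated lines and 1.02 between the untreated ones, against 0.79 and 0.77 over all tested genes.

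**Figure D4:**
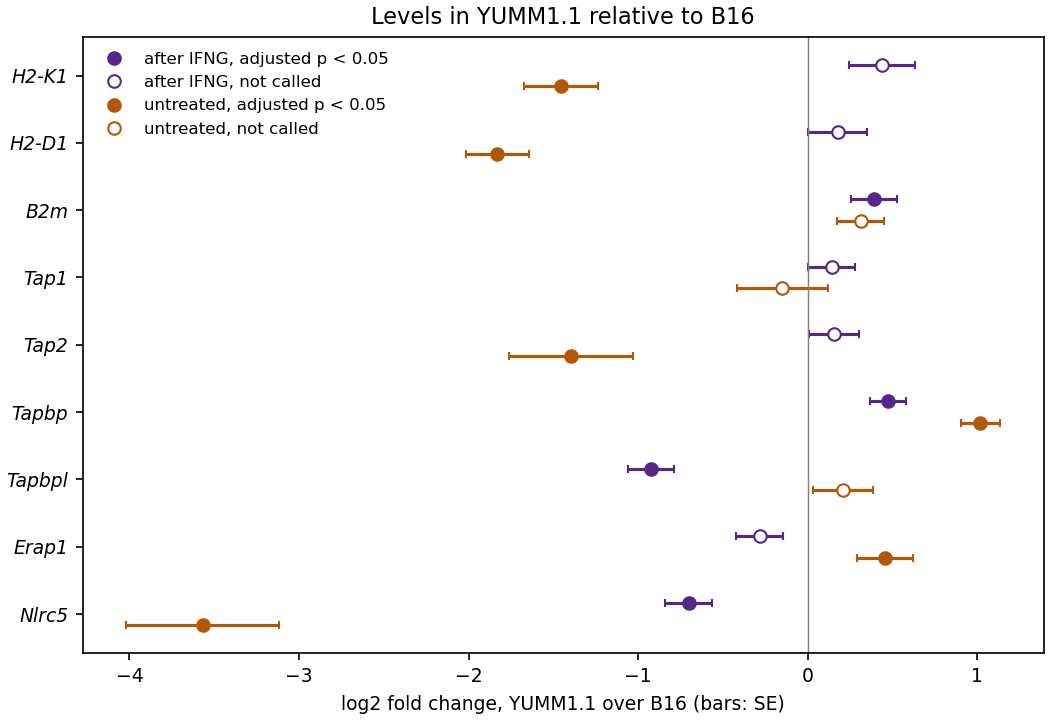
Log2 ratio of YUMM1.1 over B16 for each member after IFNG (purple) and untreated (orange); bars are SE and filled points have an adjusted p below 0.05. Untreated Nlrc5, H2-D1, H2-K1 and Tap2 lie between -3.57 and -1.40, and after IFNG the 9 values lie between -0.92 and 0.47.

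Levels of different genes were compared as CPM per kb of exon, which allows for gene length if the counts cover exons alone. B2m made up 69.3% of the members' summed level per kb in treated YUMM1.1 cells and 90.4% in untreated ones, and 66.8% in treated and 82.9% in untreated B16 cells. In treated YUMM1.1 cells B2m had 5284 ± 334 CPM per kb, H2-D1 998 ± 124, H2-K1 745 ± 231 and Tapbp 312 ± 38.5 (SD, n = 3). Within each of these libraries H2-K1 was below H2-D1, at ratios of 0.686, 0.635 and 0.886. With the longest transcript as length the ratios were 0.877, 0.812 and 1.13, so that order depends on the length used. In untreated YUMM1.1 cells Tapbp, at 25.1 ± 1.12 CPM per kb, exceeded H2-D1 at 13.8 ± 3.84 and H2-K1 at 4.79 ± 0.790. In treated B16 cells the order was B2m (4390 ± 1065 CPM per kb), H2-D1 (960 ± 180), H2-K1 (598 ± 114) and Tapbp (245 ± 11.4), and in untreated B16 cells B2m (462 ± 26.8), H2-D1 (56.9 ± 3.61), H2-K1 (15.0 ± 1.84) and Tapbp (14.5 ± 0.932), the last 2 within their spread. With the longest transcript as length, untreated B16 cells had 23.6 ± 2.88 for H2-K1 and 18.1 ± 1.17 for Tapbp. Nlrc5 was the lowest in all 4 groups, at 24.9 ± 2.79 CPM per kb in treated and 0.0198 ± 0.00994 in untreated YUMM1.1 cells, and 44.1 ± 5.00 in treated and 0.307 ± 0.111 in untreated B16 cells.

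The heavy chains gained on the light chain. The ratio of H2-K1 plus H2-D1 to B2m, per kb, was 0.306, 0.299 and 0.379 in treated YUMM1.1 libraries, against 0.0363, 0.0321 and 0.0441 in controls. In B16 it was 0.437, 0.479 and 0.217 after IFNG, against 0.173, 0.154 and 0.142 in controls, so that IFNG 3 had less than IFNG 1 and IFNG 2 but more than any control. Within the heavy chains, H2-K1 over H2-D1 averaged 0.736 ± 0.133 in treated and 0.365 ± 0.113 in untreated YUMM1.1 cells, and 0.622 ± 0.00509 in treated and 0.264 ± 0.0241 in untreated B16 cells (SD, n = 3). Treated and control libraries did not overlap in either ratio in either line. With 3 libraries against 3, an exact two-sided permutation test of such a ratio cannot go below p = 0.1.

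For the transporter, Tap1 over Tap2 was 1.76, 1.58 and 1.59 in treated YUMM1.1 libraries, against 2.01, 2.71 and 2.02 in controls. In B16 it was 1.62, 1.63 and 1.73 after IFNG, against 0.954, 1.07 and 0.690 in controls. The ratio was thus lower with IFNG in YUMM1.1 and higher in B16, without overlap, and the treated lines had 1.64 ± 0.0981 in YUMM1.1 and 1.66 ± 0.0645 in B16. The control ratios rest on few reads in all, 156 of Tap1 and 49 of Tap2 in YUMM1.1 and 51 and 38 in B16. They use the same counts as the Tap2 difference between lines, whose call was lost without B16 control 1. With the longest transcript as length, Tap1 over Tap2 averaged 2.09 in treated and 2.86 in untreated YUMM1.1 cells, and 2.12 in treated and 1.15 in untreated B16 cells. Per kb of the union of exons, Tapbp over Tapbpl averaged 5.10 ± 0.306 in treated and 5.59 ± 0.732 in untreated YUMM1.1 cells, which overlapped. In B16 cells it averaged 1.93 ± 0.114 in treated and 3.25 ± 0.409 in untreated cells, which did not.

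**Figure D5:**
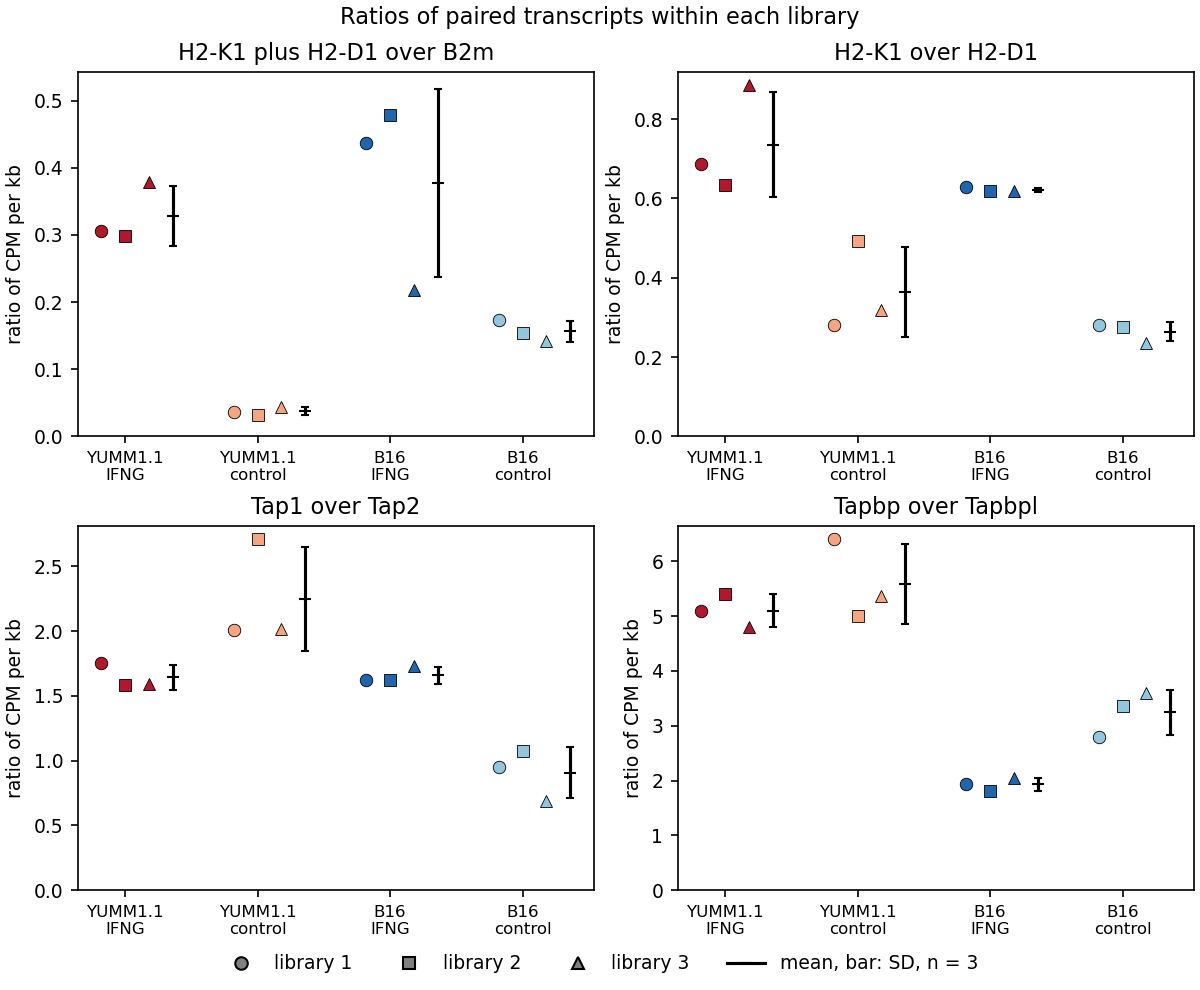
Ratios of CPM per kb between paired members in each library, by group; symbols mark the library number and bars the mean ± SD of 3 libraries. The heavy chain to B2m ratio is higher after IFNG in both lines, and Tap1 over Tap2 is near 1.64 in treated YUMM1.1 and 1.66 in treated B16.

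Of 5 immunoproteasome and PA28 genes, which cut and release the peptides that TAP carries, 5 were called higher in both lines, where 3.73% of tested genes were in YUMM1.1 and 22.1% in B16. Psmb9, a catalytic subunit whose gene overlaps that of Tap1 on the opposite strand, averaged 186 ± 50.6 CPM in treated YUMM1.1 cells, against 6 reads in all 3 controls, and 334 ± 45.0 CPM in treated B16 cells, against 2 control reads. Psme2, a PA28 subunit, rose by 2.90 ± 0.14 on the log2 scale in YUMM1.1 (adjusted p = 3.75e-07) and by 3.66 ± 0.10 in B16 (adjusted p = 4.96e-09). Of 9 genes for peptide supply and trimming outside the proteasome, 1 was called higher in YUMM1.1 (3.73% of tested genes were) and 4 in B16 (22.1% were). The B16 count ranged between 2 and 5 over the alternatives, so it did not stand clear of the share of all genes. The aminopeptidase gene Lap3 rose by 0.69 ± 0.14 in YUMM1.1 (adjusted p = 0.0172) and by 2.85 ± 0.10 in B16 (adjusted p = 3.05e-08). Its YUMM1.1 call was lost without YUMM1.1 control 1 (0.59, adjusted p = 0.0556) or control 3 (0.68, 0.0744). Sec61a1, a channel subunit of the endoplasmic reticulum, was the most abundant of the list and rose by 0.39 ± 0.08 in B16 (adjusted p = 0.00474), but by 0.19 with library totals alone (adjusted p = 0.0738).

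Of 9 genes for folding and quality control of class I in the endoplasmic reticulum, none was called in YUMM1.1 by edgeR, DESeq2 or limma-voom. By edgeR 3.73% of all tested genes were called higher there and 0.825% lower, so this count was near the share of all genes. At an unadjusted p below 0.05, 2 of the 9 were higher in YUMM1.1 by edgeR and 3 by each of the other tools. In B16, 7 of the 9 were called higher, where 22.1% of tested genes were. Pdia3, the ERp57 disulphide isomerase of the loading complex, averaged 1584 ± 195 CPM in treated and 1331 ± 103 CPM in untreated YUMM1.1 cells, and 1187 ± 134 CPM in treated and 620 ± 57.6 CPM in untreated B16 cells (SD, n = 3). It rose by 1.13 ± 0.10 in B16 (adjusted p = 2.71e-05), and the response was smaller in YUMM1.1 by a difference of -0.78 ± 0.17 (adjusted p = 0.00368). P4hb, another disulphide isomerase, rose by 0.83 ± 0.08 in B16 (adjusted p = 2.18e-05) and had a difference of -0.70 ± 0.16 (adjusted p = 0.00675).

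Of 16 transcription factor genes that act on class I promoters, 6 of 16 tested were called higher in YUMM1.1 (3.73% of tested genes were), and 6 of 15 tested higher and 3 lower in B16 (22.1% and 22% were). The count lower in B16 was near the share of all genes, and the 3 genes are given as single values. Irf1, which binds interferon elements, averaged 443 ± 30.9 CPM in treated and 28.2 ± 2.15 CPM in untreated YUMM1.1 cells, and 817 ± 47.4 CPM in treated and 28.9 ± 4.63 CPM in untreated B16 cells. It rose by 4.05 ± 0.13 in YUMM1.1 (adjusted p = 1.43e-08) and by 4.98 ± 0.13 in B16 (adjusted p = 5.84e-09). Ciita, the class II transactivator related to Nlrc5, averaged 5.21 ± 4.0 CPM in treated YUMM1.1 cells, against 8 control reads, and 316 ± 41.1 CPM in treated B16 cells, against 5 control reads. The difference of its response was -4.75 ± 1.94 (adjusted p = 0.111) and did not pass. Irf8 averaged 3.39 ± 2.64 CPM in treated YUMM1.1 cells, against 1 control read, and was not tested in B16. The genes lower in B16 were Rela (-0.76 ± 0.15, adjusted p = 0.00294) and Nfkb1 (-0.74 ± 0.11, adjusted p = 6.71e-04), which encode NF-kB subunits, and Nfya (-0.72 ± 0.11, adjusted p = 7.80e-04), which encodes a subunit of the Y box factor. In YUMM1.1 the values were -0.10 ± 0.10 for Rela, -0.30 ± 0.10 for Nfkb1 and -0.26 ± 0.11 for Nfya, none of them called.

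Of 12 other genes whose products pair with B2m, or are close relatives of the class I heavy chain, 9 of 12 tested were called higher in YUMM1.1 (3.73% of tested genes were), and 7 of 9 tested higher and 2 lower in B16 (22.1% and 22% were), the count lower being near the share of all genes. H2-T23, the Qa-1 heavy chain, averaged 406 ± 102 CPM in treated and 2.50 ± 0.750 CPM in untreated YUMM1.1 cells, and 477 ± 89.0 CPM in treated B16 cells, against 15 control reads. H2-T22 had the highest CPM averaged over the 4 groups, though not the highest in either B16 group, and rose by 3.85 ± 0.20 in YUMM1.1 (adjusted p = 4.92e-07) and 4.43 ± 0.11 in B16 (adjusted p = 2.91e-09). H2-Q4 averaged 627 ± 99.9 CPM in treated and 0.615 ± 0.147 CPM in untreated YUMM1.1 cells, and 119 ± 20.5 CPM in treated and 8.81 ± 2.01 CPM in untreated B16 cells. Its log2 fold change was 10.07 ± 0.23 (adjusted p = 3.26e-09) in YUMM1.1 and 3.89 ± 0.19 (adjusted p = 3.69e-07) in B16, and as a class I paralog it may share reads with H2-K1 and H2-D1. The 2 genes lower in B16 were Fcgrt, the neonatal Fc receptor (-2.33 ± 0.17, adjusted p = 5.37e-06), and Hfe, an iron regulator (-1.0 ± 0.12, adjusted p = 1.75e-04). In YUMM1.1 Hfe was higher, by 1.97 ± 0.32 (adjusted p = 0.00439), at 2.69 ± 0.442 CPM in treated and 0.716 ± 0.216 CPM in untreated cells, and Fcgrt had 0.51 ± 0.22 (adjusted p = 0.297).

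By the distance between centred log2 CPM profiles over the 12 libraries, the genes outside the 9 that lay nearest to the members' median profile were Isg15, a ubiquitin-like protein gene (distance 0.814), Irf7 (1.1), Gm5970 (1.60), 9930111J21Rik2 (1.89) and Irgm1, an immunity-related GTPase (1.97). The members themselves lay between 1.23 (H2-D1) and 5.50 (Nlrc5) from that profile. The log2 values used a prior count of 2, on which the distances of genes near 0 depend. Gm5970 averaged 0 CPM in both control groups. 9930111J21Rik2 averaged 0 CPM in untreated B16 and 0.0149 CPM in untreated YUMM1.1 cells. Isg15 averaged 159 CPM in treated and 2.03 CPM in untreated YUMM1.1 cells, and 175 CPM in treated and 6.72 CPM in untreated B16 cells. Nearest to Nlrc5 were Ifi47 (2.28), Rtp4 (2.58), Oasl2 (2.77), Batf2 (3.06) and C4b (3.85), while the nearest member, Tap2, was at 3.30. The profiles share the same libraries and the same treatment contrast, so likeness is a description.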

How the data were processed

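RNA-seq libraries of 2 mouse melanoma lines, with and without IFNG, were grouped by the sample labels. The authors deposited raw read counts per Ensembl gene ID, whole numbers with no normalization, and comparison tables with log2 fold changes, a test statistic (a score) and p-values. The genome build is GRCm38 per the submitters' processing notes. Aligner, counter, annotation release and library strand are not named by any source used here. No p-value or score of the authors was used, and their deposited log2 values differed from those computed here by at most 0.0514 for the 9 members.

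The count model was edgeR 4.0.16 in R 4.3.3 (filterByExpr, TMM factors, robust quasi-likelihood F tests), fitted on the whole table: 6 libraries for each line's IFNG effect, and all 12 for the interaction and the comparisons of lines. Calls needed an adjusted p below 0.05 (Benjamini-Hochberg, all tested genes). SE was taken as |log2| divided by the root of F, which may be too small for genes with few control reads, such as Nlrc5 and Tap2. CPM is counts over library totals, per kb of the union of M21 exons. Depth, which sets the precision, is given with the results. Alternatives used RLE factors, library totals, other filters, DESeq2 1.42.0, limma-voom (limma 3.58.1), a replicate block, left-out libraries, a stricter threshold and the longest transcript as length. Motifs and shared stretches were searched in Python 3.11.15 with pandas 2.3.3, and figures drawn with matplotlib 3.10.9. From each of 5 lists of related genes the text names the called gene with the largest change in each line, the most abundant and those called against the majority of the list. The members and lists were chosen with earlier results of these data known.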

Additional observations from a re-analysis of the deposited data

Results flagged for a closer look

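The response to IFNG differed between the lines by the test of the difference itself (interaction, YUMM1.1 minus B16, on the log2 scale, adjusted p below 0.05) for 7 members and 11 of the related genes named. Of all tested genes 9.95% were called higher and 8.51% lower in this test. The related genes were named for a large called change, for abundance or for a call against their list. Their count is therefore a description. For the members the values were 2.86 for Nlrc5, 2.01 for H2-D1, 1.89 for H2-K1, 1.55 for Tap2, -0.54 for Tapbp, -0.74 for Erap1 and -1.13 for Tapbpl.

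Among the related genes the difference was positive for H2-Q4 (6.19), Hfe (2.99), Fcgrt (2.86), Rela (0.68) and Nfya (0.48). It was negative for P4hb (-0.70), Psme2 (-0.74), Pdia3 (-0.78), Irf1 (-0.91), H2-T23 (-1.69) and Lap3 (-2.14). Nfya had an adjusted p of 0.0494, which was above the threshold under most alternatives (up to 0.127 without B16 control 2, and 0.0745 with B16 IFNG 1 and 2 summed). That of H2-T23, 0.0320, was above it with limma-voom (0.110), with B16 IFNG 1 and 2 summed (0.0501) and without any 1 of several libraries (up to 0.0853 without B16 control 2), and that of Rela, 0.0168, was above it without B16 control 1 (0.0633). Hfe fell in B16 and rose in YUMM1.1.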

How the results depend on the processing

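The rise of all 9 members with IFNG kept its direction and its call in 135 of 135 member alternatives in YUMM1.1 and 144 of 144 in B16. For the difference between lines 168 of 189 kept both, for the untreated lines 172 of 189 and for the treated lines 174 of 189. The signs that turned belonged to values that were not called: the B2m difference (-0.039 without B16 IFNG 2, the others being up to 0.28, and -0.030 with B16 IFNG 1 and 2 summed), untreated Tapbpl (-0.00414 with library totals alone) and untreated Tap1 (-0.29 to 0.061 with single libraries left out, above 0 without B16 control 1 and, at 0.00379, without YUMM1.1 control 3). At an adjusted p below 0.01 the members with a smaller response in YUMM1.1 numbered 1 in place of 3, and those higher in YUMM1.1 numbered 1 in place of 2 after IFNG and 1 in place of 2 untreated. The last also fell to 1 with library totals alone and with limma-voom, and the treated count to 1 with library totals alone and with B16 IFNG 1 and 2 summed. Leaving out single libraries gave 1 to 3 for each of these 3 counts. Library totals alone shifted the median log2 value by -0.077 in YUMM1.1, -0.19 in B16, -0.12 between treated and -0.22 between untreated lines. Over all genes that scaling gave 425 higher and 178 lower calls in YUMM1.1 in place of 484 and 107, 1702 and 3872 in B16 in place of 2486 and 2472, 1727 and 886 for the difference in place of 1353 and 1157, and 3802 and 5595 between untreated lines in place of 4721 and 4546. In YUMM1.1 no filter gave 781 and 274 and DESeq2 622 and 203, and leaving out single libraries 38 to 101 lower calls. The count of peptide supply genes called higher ranged between 0 and 1 in YUMM1.1 and between 2 and 5 in B16 over the alternatives, and that of folding genes between 0 and 1 in YUMM1.1 and between 6 and 7 in B16. Limits on precision are the depth of B16 and the few control reads of Nlrc5 and Tap2. The cause of these changes was not tested.

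With the library number as a replicate block, B2m was called higher in untreated YUMM1.1 than in untreated B16 (0.31, adjusted p = 0.0329), and no other member call changed. Over all genes in B16 the block gave 2876 higher and 2889 lower calls, in place of 2486 and 2472. The deviations of libraries with the same number correlated at -0.012, -0.43 and -0.073 in YUMM1.1 and at 0.28, 0.00586 and 0.28 in B16. B16 IFNG 1 and IFNG 3 correlated best with the control of their own number. The other treated libraries did not, so the numbers were not taken as pairs, though pairing in B16 is not excluded.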

Other observations

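The X2-Y module of the H2-K1, H2-D1 and B2m windows occurred in promoter windows of 27 genes, members included. Of these, 5 of 21 tested genes were called higher with IFNG in YUMM1.1 and 6 of 19 in B16, where 6 were called lower. Of all tested genes 3.73% were called higher in YUMM1.1, and 22.1% higher and 22% lower in B16, so the B16 counts were not far from those shares, and 3 of the genes higher in each line are the members whose windows set the motif. Called higher in both lines were H2-K1, H2-D1, B2m, the class I-like gene H2-M3 and Trim26, whose log2 fold change was 0.79 in YUMM1.1 (adjusted p = 6.68e-04) and 0.71 in B16 (adjusted p = 0.00127). The motif was chosen after the windows of 3 members had been seen, so these counts are a description.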
